A study of Mus musculus with 16 samples.

Results

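The Fos family is a set of 4 genes, Fos, Fosb, Fosl1 and Fosl2, picked by gene identity from a count table of 55356 Ensembl genes, and all 4 were found. They were followed in sensory neurons of the dorsal root ganglion, taken from CD1 mouse embryos and grown with nerve growth factor until they were treated at 6 days in vitro. The medium also held 5-fluorodeoxyuridine and uridine, a mix that holds back dividing cells. Every culture got a pretreatment and, 15 min later, a treatment of 16 h. In the group called DMSO here (DMSO_DMSO) both were the solvent DMSO. The nocodazole group (DMSO_Noc) had DMSO and then 200 nM nocodazole, a drug that makes microtubules disassemble. The inhibitor group (DLKi_DMSO) had 500 nM GNE3511 and then DMSO. GNE3511 inhibits dual leucine zipper kinase (DLK), which relays axon damage to the nucleus through the kinase JNK. The fourth group, inhibitor plus nocodazole (DLKi_Noc), had 500 nM GNE3511 and then 200 nM nocodazole. Each group had 4 libraries of total RNA freed of ribosomal RNA. The labels do not say whether these came from separate cultures, so the p-values below reflect the spread among these libraries alone, and that spread may be technical. A single inhibitor at a single dose was used, so its action on DLK and on other targets cannot be told apart.

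Fos proteins bind DNA as a subunit of the dimeric transcription factor AP-1. They cannot pair with each other and need a Jun protein or a related leucine zipper protein as partner. Fos and Fosb carry strong activation domains, while Fosl1 (Fra-1) and Fosl2 (Fra-2) lack them. Fos and Fosb are classic immediate early genes, switched on within minutes of a stimulus through serum response factor and cyclic AMP response element binding protein, and their messenger RNAs are short-lived. Fosl1 and Fosl2 usually follow later and last longer. In sensory neurons AP-1 is best known from the response to axon injury, in which Jun and Atf3 are induced.

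The start regions of these genes are shown because 3 of the members rose together, and cyclic AMP response elements and TATA boxes near the start are the best known parts of the Fos promoter. The RefSeq promoter table for GRCm38.p6 held 3 of the 4 members, Fos, Fosb and Fosl2. Fosl1, which rose, is thus not shown, and Fosb, which is shown, did not pass the test for a rise. The stretches run 5′ to 3′ through the 250 bases before the annotated start, at chr12:85473640-85473889 (plus strand) for Fos, chr7:19310046-19310295 (minus strand) for Fosb and chr5:32136222-32136471 (plus strand) for Fosl2. Capitals mark TGACG, the core of the cyclic AMP response element, and the TATA box core TATAAA.
Fos: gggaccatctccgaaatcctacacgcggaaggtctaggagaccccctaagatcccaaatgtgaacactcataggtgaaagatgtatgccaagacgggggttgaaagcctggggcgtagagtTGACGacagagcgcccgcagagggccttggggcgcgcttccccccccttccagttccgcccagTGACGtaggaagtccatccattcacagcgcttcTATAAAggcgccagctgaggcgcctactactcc
Fosb: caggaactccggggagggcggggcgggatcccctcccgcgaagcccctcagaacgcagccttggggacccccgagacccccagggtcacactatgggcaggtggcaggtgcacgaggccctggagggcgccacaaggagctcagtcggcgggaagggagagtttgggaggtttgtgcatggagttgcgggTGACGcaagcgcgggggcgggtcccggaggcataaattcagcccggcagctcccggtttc
Fosl2: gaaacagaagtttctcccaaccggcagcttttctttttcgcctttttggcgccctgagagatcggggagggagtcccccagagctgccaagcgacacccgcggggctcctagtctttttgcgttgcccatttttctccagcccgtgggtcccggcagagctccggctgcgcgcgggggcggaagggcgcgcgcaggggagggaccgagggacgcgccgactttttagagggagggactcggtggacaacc
The core TGACG began at -129 and -66 in Fos and at -60 in Fosb, counted from the start with -1 as the base before it, and was not in the Fosl2 window. Searched on both strands, it was in 17.8% of 32851 promoter windows of this length. TATAAA began at -33 in Fos and was in 12.4% of all windows. The full cyclic AMP response element TGACGTCA, which contains the core, was in none of the 3 windows and in 1.55% of all windows. The AP-1 site TGANTCA (6.75% of all) and the serum response factor CArG box (1.47% of all) were in none of the 3 either. The well known serum response element of Fos lies further upstream than these windows reach. The GC box GGGCGG, in 32.7% of all windows, was in all 3, at -74 in Fos, at -235, -230 and -46 in Fosb and at -75 in Fosl2, and it was the only 1 of the 6 motifs searched in the Fosl2 window.

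Libraries held between 30987962 and 43321421 counts, and 19156 genes, the 4 members among them, passed the filter on low counts. Fos and Fosl1 passed it mainly through the nocodazole group, where they were high, so that passing is no support for a rise. Fosl1 reached 10 counts only in the 4 nocodazole libraries, and Fos in those 4 and in 2 others. Mitochondrial transcripts held 0.765% to 1.78% of each library. Defining markers of satellite glia and Schwann cells were near 0, with Sox10 at 1 to 14 counts and Gfap at 0 to 2 per library. Fibroblast genes varied, with Lum at 0 to 2 counts, Col1a1 at 5 to 73, Dcn at 5 to 163 and Thy1, which neurons also express, at 939 to 2525. Outside the nocodazole group Fos, Fosb and Fosl1 were themselves at 19 counts or less per library. The 15 neuron markers were high in all 16 libraries. Their summed level was 18000 to 19400 CPM (depth-scaled counts, with TMM-scaled library sizes) in DMSO, 14500 to 17100 in nocodazole, 15600 to 17600 with the inhibitor and 14700 to 17200 with both agents. Of the 15, 7 fell and 1 rose with nocodazole without the inhibitor (19% and 18.6% of all genes), and the part of this in the results below was not tested.

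Nocodazole without the inhibitor was followed by higher levels of 3 of the 4 family members. The fitted rise was 22-fold for Fos, 9.27-fold for Fosl2 and 8.82-fold for Fosl1, and Fosb did not pass the test. Of all genes tested, 37.5% were called in this comparison and 18.6% were called higher. Groups that did not overlap, with nocodazole higher, were found for the same 3 members and for 18% of all genes. The question was what nocodazole does to neurons that were not given the inhibitor.

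Fosl2, which encodes Fra-2, had the most counts of the family in every library. Its counts in the 4 DMSO libraries were 176, 203, 352 and 209, which is 5.47, 5.95, 8.11 and 6.48 CPM. In the nocodazole libraries they were 2520, 2066, 1926 and 1617, or 69.5, 61.8, 58.2 and 52.6 CPM. Every nocodazole library lay far above every DMSO library, and the spread within the group was small (coefficient of variation 11.7%). Means were 6.50 ± 1.15 CPM in DMSO and 60.5 ± 7.09 CPM in nocodazole (SD, n = 4). On the log2 scale Fosl2 rose by 3.21 ± 0.179 (SE), with an adjusted p of 4.77e-09 in edgeR's quasi-likelihood test. A larger absolute change was found in 0.485% of the 19156 genes.

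Fos, the founding member of the family, was close to absent without nocodazole. Its counts were 7, 6, 11 and 3 in the DMSO libraries and 211, 178, 102 and 82 in the nocodazole libraries. The groups did not overlap, and in the nocodazole group Fos and Fosl2 ranked the 4 libraries alike. Replicates 1 and 2, the highest for both genes, also had the highest mitochondrial shares of that group. These were 1.36% and 1.5%, against 0.875% and 0.977% in replicates 3 and 4, and their part in the ranking was not tested. Mean levels were 0.185 ± 0.0690 and 4.22 ± 1.58 CPM (SD, n = 4). The log2 change of 4.46 ± 0.435 (edgeR adjusted p = 1.1e-06) was the highest of the family, and 0.151% of all genes had a larger absolute change.

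Fosl1, which encodes Fra-1, had 0, 7, 7 and 1 counts in DMSO and 59, 18, 25 and 26 in nocodazole. All nocodazole libraries were above all DMSO libraries, with replicate 1 at 1.63 CPM and the other 3 between 0.539 and 0.846 CPM. The log2 change was 3.14 ± 0.679 (edgeR adjusted p = 0.00169), with a 95% interval from 1.71 to 4.58. A count of 0 in a library allows up to 3 counts, which is 0.0933 CPM in DMSO replicate 1. Fosl1 overlaps Ccdc85b on the opposite strand, and strand use in the counting is not given in the sources used here, so reads of the pair may not be told apart. Ccdc85b had 911 to 1612 counts per library and went the other way, from 38.9 ± 1.55 to 29.2 ± 2.67 CPM (SD, n = 4, log2 change -0.42, edgeR adjusted p = 0.00189).

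Fosb, which encodes FosB and its truncated form ΔFosB (one gene count holds both), had 3, 3, 18 and 4 counts in DMSO. In nocodazole it had 18, 24, 22 and 3. The groups overlapped: DMSO replicate 3 (0.415 CPM) was far above nocodazole replicate 4 (0.0976 CPM), and the other 3 nocodazole libraries were at 0.497 to 0.718 CPM. The log2 change was 1.37 ± 0.707 (edgeR adjusted p = 0.14), with a 95% interval from -0.13 to 2.87. Without DMSO replicate 3 it was 2.25 and passed the test (edgeR adjusted p = 0.047).

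**Figure D1:**
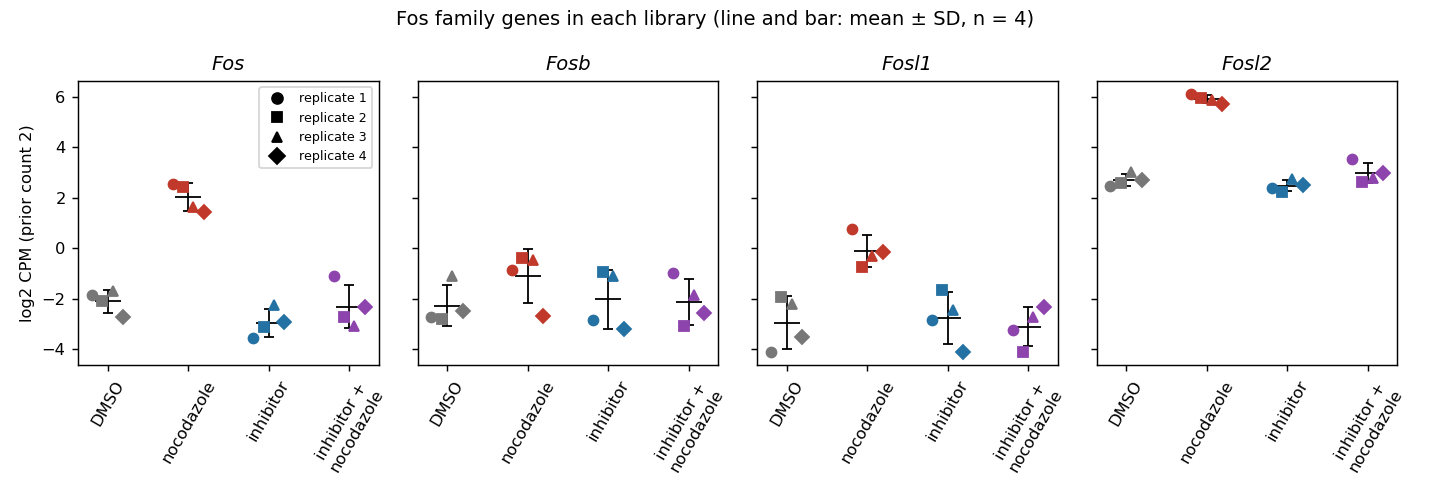
Log2 CPM (prior count 2) of each family member by group, with 1 point per library, shapes for replicate numbers, and mean ± SD over 4 libraries in black. The nocodazole libraries stand apart for Fos, Fosl1 and Fosl2, while Fosb spreads widely in all 4 groups.

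The inhibitor without nocodazole left no family member called, while 13% of all genes were called, 5.78% higher and 7.24% lower. All 4 overlapped between the groups; 10.1% of all genes were higher and 11.6% lower without overlap. This comparison asked what the inhibitor does to the baseline. Fosl2 had 191, 162, 214 and 225 counts, and its 5.59 ± 0.843 CPM (SD, n = 4) overlapped the DMSO group. Its log2 change was -0.22 ± 0.180 (edgeR adjusted p = 0.422), with a 95% interval from -0.61 to 0.16. Fos had 1, 2, 5 and 3 counts, 11 in all against 27 in DMSO, with a log2 change of -1.24 and an interval from -2.62 to 0.14 (edgeR adjusted p = 0.215). Fosb (3, 16, 13 and 2 counts) and Fosl1 (3, 9, 4 and 0 counts) had log2 changes of 0.36 and 0.13. Their intervals ran from -1.27 to 1.98 and from -1.73 to 1.99, which hold 2-fold changes either way. By an unadjusted edgeR p below 0.05, 0 members and 5626 genes passed, and DESeq2 called 3116 genes and 0 members, with no adjusted p for Fosb. The number of all genes called, 2494, was 1523 without DMSO replicate 2, 1274 without DMSO replicate 4, 1242 without inhibitor replicate 2 and 1290 without inhibitor replicate 3.

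With the inhibitor present, no family member passed the test for a nocodazole change. Fosl2 had 483, 196, 220 and 278 counts in the inhibitor plus nocodazole group, or 11.6, 6.14, 6.83 and 7.86 CPM. Replicate 1 was above every DMSO library, and the other 3 lay within the DMSO range. Against the inhibitor alone, the log2 change of Fosl2 was 0.54 ± 0.178 (unadjusted p = 0.00729, edgeR adjusted p = 0.486), and 0.32 without replicate 1. Of all genes, 0.0835% (16) were called here, 0.0783% higher and 0.00522% lower, and 0 members. Without overlap, 2.03% of all genes were higher and 1.25% lower, and 0 members. By an unadjusted edgeR p below 0.05, 1 member (Fosl2) and 1146 genes passed, and DESeq2 called 127 genes and 0 members, with no adjusted p for Fosb and Fosl1. The 16 genes were 88 without inhibitor plus nocodazole replicate 1 and 3 to 8 without any of the other 7 libraries. Fos had 17, 3, 2 and 5 counts, again highest in replicate 1, and its log2 change of 1.23 was 0.35 without that library. Neither value passed the test (edgeR adjusted p = 0.90 and 0.929). Replicate 1 also had the highest mitochondrial share of its group, 1.71% against 0.865% to 1.09%, and the part of this in its Fos and Fosl2 levels was not tested. Fosl1 had 2, 0, 3 and 5 counts and Fosb 19, 2, 7 and 4, with log2 changes of -0.66 and -0.15 (edgeR adjusted p = 0.999 for each).

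Compared with nocodazole alone, the inhibitor plus nocodazole group had lower levels of the 3 members that had risen. Of all genes 33.9% were called and 16.2% were called lower. Fos was at 4.18% of its nocodazole level, Fosl1 at 7.5% and Fosl2 at 13.4% (2.35%, 8.3% and 11.5% without replicate 1). The log2 changes were -4.48 ± 0.435 for Fos (edgeR adjusted p = 9.82e-07), -3.67 ± 0.725 for Fosl1 (0.000884) and -2.89 ± 0.175 for Fosl2 (7.81e-09). In each of the 3, all 4 libraries with the inhibitor were below all 4 without it, a separation in this direction that 14.2% of all genes showed. Fosb was at 43% of its nocodazole level, with a log2 change of -1.16 and a 95% interval from -2.63 to 0.31 (edgeR adjusted p = 0.219). These comparisons share the nocodazole libraries with the earlier one, so the rise and the fall are not independent.

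The interaction tested directly whether nocodazole acted differently with and without the inhibitor, and 18.7% of all genes were called, 9.52% higher and 9.2% lower. Fosl2 was called at -2.67 ± 0.248 on the log2 scale (edgeR adjusted p = 7.64e-06). Fos at -3.24 ± 0.891 (edgeR adjusted p = 0.0189) and Fosl1 at -3.80 ± 1.19 (0.0346) were called with wide errors. Fosl2 kept its call with each of the 16 libraries left out in turn. The call for Fos was lost without inhibitor replicate 3 (edgeR adjusted p = 0.096). The call for Fosl1 was lost with replicate numbers as a block (edgeR adjusted p = 0.0607) and without any of 6 libraries: DMSO replicate 4 (0.0646), nocodazole replicate 1 (0.0655), inhibitor replicates 2 (0.155) and 3 (0.0669), and inhibitor plus nocodazole replicates 2 (0.0577) and 3 (0.0542). Fosb was not called (-1.52 ± 1.04, edgeR adjusted p = 0.322).

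Set against DMSO, the inhibitor plus nocodazole group had no member called, beside 16.7% of all genes (8.26% higher, 8.48% lower). The groups overlapped for all 4, while 10.8% of all genes were higher and 11.7% lower without overlap. Fosl2 was at 8.11 ± 2.44 against 6.50 ± 1.15 CPM (SD, n = 4), a log2 change of 0.32 with a 95% interval from -0.05 to 0.69 (edgeR adjusted p = 0.236). The interval puts the level of Fosl2 below 2-fold above DMSO. For Fos (-0.02, from -1.21 to 1.18), Fosb (0.21, from -1.43 to 1.84) and Fosl1 (-0.53, from -2.54 to 1.47) the log2 changes had intervals that still hold 2-fold differences. By an unadjusted edgeR p below 0.05, 0 members and 5839 genes passed, and DESeq2 called 3588 genes and 0 members.

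**Figure D2:**
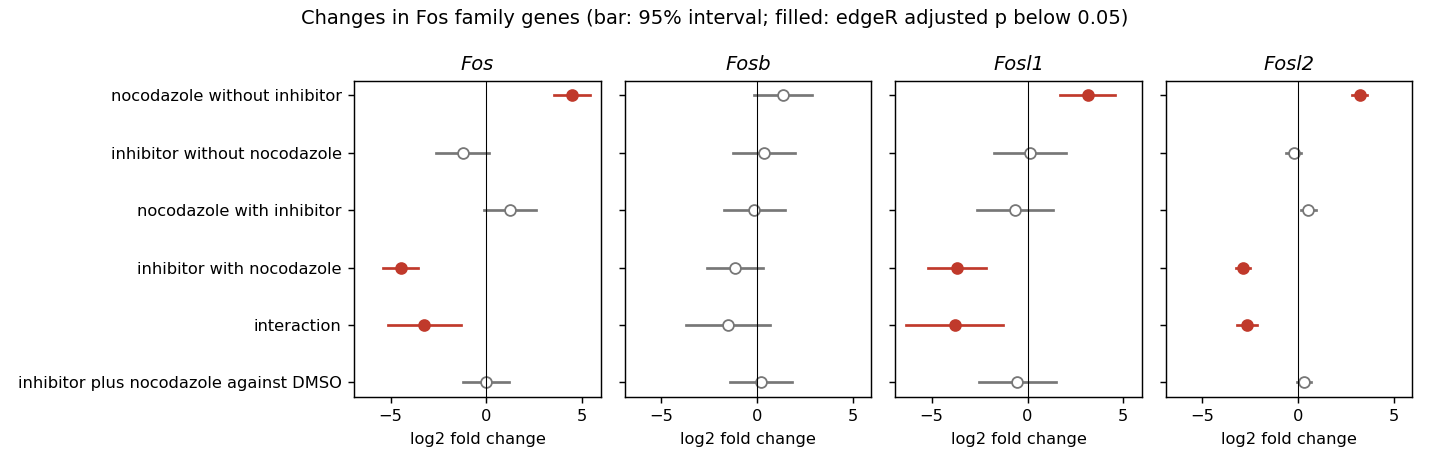
Log2 fold changes of the 4 members in the 6 comparisons, with 95% intervals from the edgeR fit and filled points for an adjusted p below 0.05. Fosl2 has short intervals, from 2.83 to 3.59 for nocodazole without inhibitor, while those of Fosb cross 0 in all 6 comparisons.

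Levels of different genes can be compared only per length, so CPM were divided by the length of the merged exons. In DMSO, Fosl2 had 0.672 ± 0.119 CPM per kb (SD, n = 4), higher than 31.7% of the genes tested. Fos at 0.0787 ± 0.0293, Fosl1 at 0.0489 ± 0.0488 and Fosb at 0.0288 ± 0.0252 CPM per kb followed. Their ranges of mean ± SD overlapped, though Fos was above Fosb in each DMSO library, and the differences were not tested. In nocodazole the order was the same and better separated. Fosl2 had 6.25 ± 0.732, Fos 1.80 ± 0.672, Fosl1 0.463 ± 0.234 and Fosb 0.0792 ± 0.0450 CPM per kb, so that Fosl2 was then above 68% of genes and Fos above 45.6%. In the inhibitor group the levels per kb were 0.578, 0.0338, 0.0577 and 0.0403 for Fosl2, Fos, Fosl1 and Fosb. In the inhibitor plus nocodazole group they were 0.837, 0.0750, 0.0347 and 0.0340 CPM per kb. In both of these groups the ranges of mean ± SD of Fos, Fosl1 and Fosb overlapped, and the differences were not tested.

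The summed level of the family went from 0.828 ± 0.183 CPM per kb in DMSO to 8.59 ± 1.54 in nocodazole (SD, n = 4). It was 0.709 ± 0.126 with the inhibitor and 0.981 ± 0.344 with both agents. Fosl2 made up 81.8% ± 6.48 of the sum in DMSO and 73.4% ± 4.69 in nocodazole, 82.3% ± 11.5 with the inhibitor and 86.4% ± 4.69 with both (SD, n = 4). The share of Fos was between 5.31% and 13.8% in the DMSO libraries and between 16.2% and 25.1% in the nocodazole libraries, which do not overlap. Fosb was the smallest part in nocodazole, 0.904% ± 0.528 against 3.18% ± 1.97 in DMSO, while the sum grew. Fosl1 held 5.47% ± 5.62 and 5.31% ± 1.96. Shares rest on the lengths used: with the longest transcript of each gene Fosl2 had 78.3% in nocodazole. They are shares of messenger RNA and are given as a description, with no test.

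**Figure D3:**
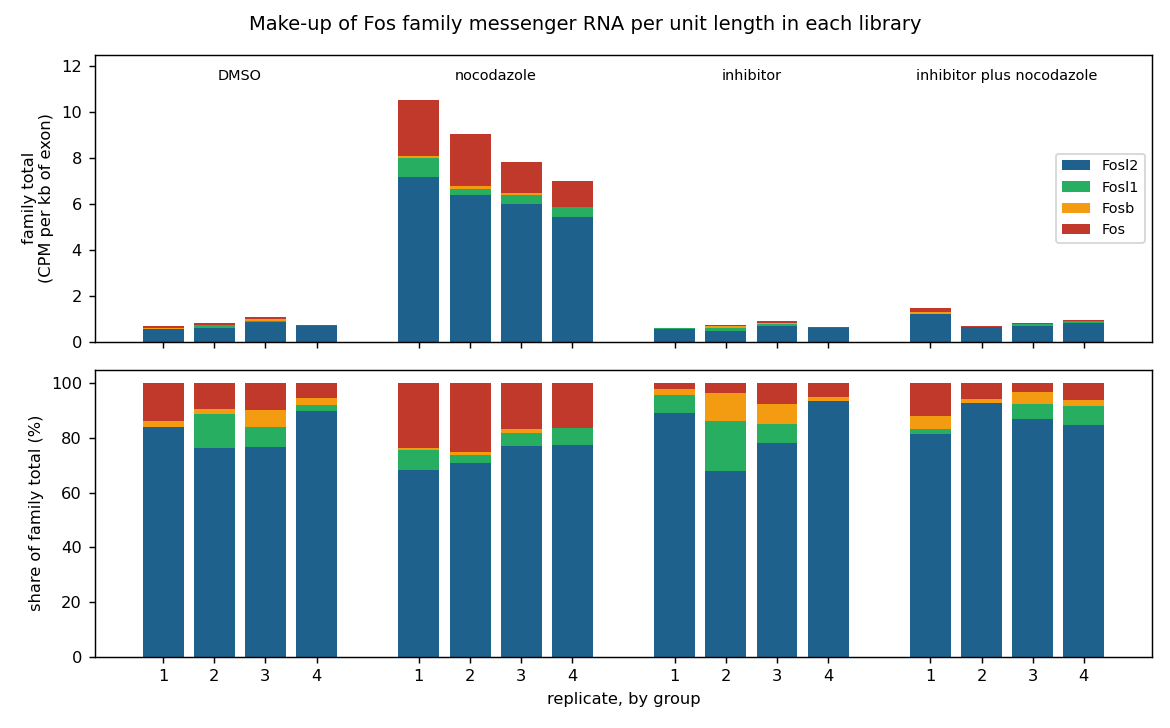
Family total in CPM per kb of exon (top) and the share of each member in percent (bottom), 1 bar per library with replicates 1 to 4 in each group. Fosl2 is the main part of every bar, between 68.1% and 93.6%, and the part of Fos is larger in the nocodazole libraries.

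Fosb had high and low libraries within every group. It reached 10 counts in 7 of 16 libraries, spread over all 4 groups. The 5 libraries with mitochondrial shares of 1.36% to 1.78% had 13 to 24 Fosb counts each. They were 2 of nocodazole, 2 of inhibitor and 1 of inhibitor plus nocodazole, with no DMSO library. In the sample descriptions they are numbered 5 to 9 without a gap, and what this numbering stands for is not given. In the other 11, with 0.765% to 1.09%, Fosb was at 7 counts or less in 9 and at 18 and 22 counts in 2. Its dispersion, given as the biological coefficient of variation of the edgeR fit, was 0.656, against a median of 0.131 over all genes, 0.584 for Fosl1, 0.365 for Fos and 0.166 for Fosl2. The part of RNA or cell quality, or of sample order, in the Fosb counts was not tested.

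**Figure D4:**
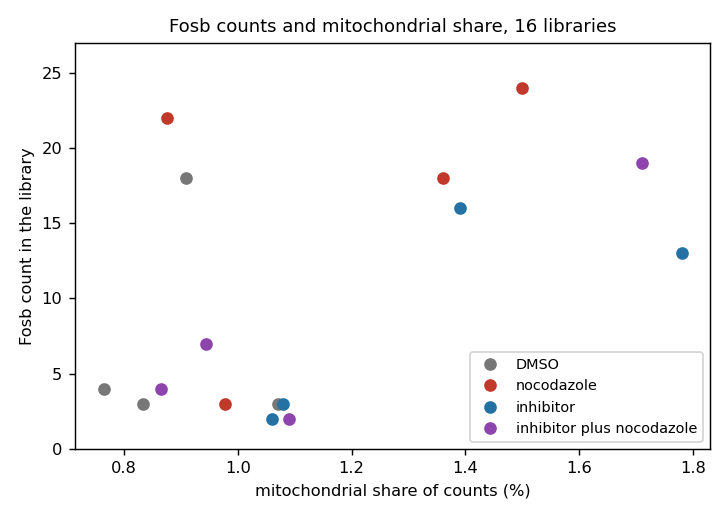
Fosb counts (vertical axis) and the mitochondrial share of all counts in percent (horizontal axis) in the 16 libraries, coloured by group. All 5 libraries above 1.2% have at least 13 counts, and 9 of the other 11 have at most 7.

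The Jun genes supply the partners of Fos proteins, and Jun and Jund, but not Junb, were called lower with the inhibitor alone. Jun, the main nuclear target of JNK, had 38.9, 56.5, 94.2 and 91.6 CPM in the DMSO libraries and 1.96, 0.843, 1.5 and 21.1 CPM in the inhibitor libraries, with replicate 4 well above the others (log2 change -3.43, edgeR adjusted p = 0.00319). Junb changed by -0.11 (edgeR adjusted p = 0.904). Jund, the most abundant Jun gene here, fell from 281 ± 46.5 to 70.1 ± 32.5 CPM with the inhibitor (SD, n = 4, log2 change -2.00, edgeR adjusted p = 0.000126). Fosl2 kept close to its DMSO level in the same libraries. Differences in log2 CPM between genes follow. They are not scaled for length, so they compare groups and do not show which gene had the higher level. Fosl2 minus Jun was -3.35 ± 0.42 in DMSO and 1.01 ± 1.97 in the inhibitor group (SD, n = 4), higher in 4 of 4 libraries than in any DMSO library. Fosl2 minus Jund was -5.42 ± 0.20 and -3.55 ± 0.56, higher likewise in 4 of 4. Fosl2 minus Junb was 2.12 ± 0.33 in DMSO and 2.05 ± 0.64 with the inhibitor. Per kb of exon, however, mean levels in DMSO were 0.672 CPM for Fosl2 and 0.651 for Junb. In the inhibitor group they were 0.578 CPM per kb for Fosl2 and 1.99 for Jun, whose mean was raised by replicate 4. In nocodazole, Fosl2 minus Jun was -1.86 ± 0.41, Fosl2 minus Junb 3.57 ± 0.17 and Fosl2 minus Jund -2.38 ± 0.25. These differences restate the changes of the single genes and were chosen after those had been seen, so they are given as a description, with no test.

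Per kb of exon, Jun had 69.9 and Jund 189 CPM in nocodazole, above the 6.25 CPM per kb of Fosl2, while Junb had 2.22. With both agents Jun was at 0.396 CPM per kb, below the 0.837 of Fosl2, and Jund at 34.1. Atf3, an injury-induced partner of Jun proteins, had 84.1 CPM per kb in nocodazole and 1.63 with both agents. Jdp2, a repressor of AP-1, had log2 changes of 0.48 (edgeR adjusted p = 0.0087) in nocodazole without inhibitor and 0.44 (0.365) with it, and its interaction was -0.04. Batf3 did not pass the filter, with at most 8 counts in a library. Of 17 AP-1 dimer partners tested of 21 listed, 12 rose with nocodazole and 0 fell, where 18.6% of all genes rose and 19% fell, with a median log2 change of 1.01 against 0.01 over all genes. With the inhibitor alone 1 rose and 6 fell (5.78% and 7.24% of all genes). In the interaction 9 were lower and 0 higher (9.2% and 9.52% of all genes), with a median of -1.36 against 0 over all genes. The lists that follow have the same shares of all genes as background.

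**Figure D5:**
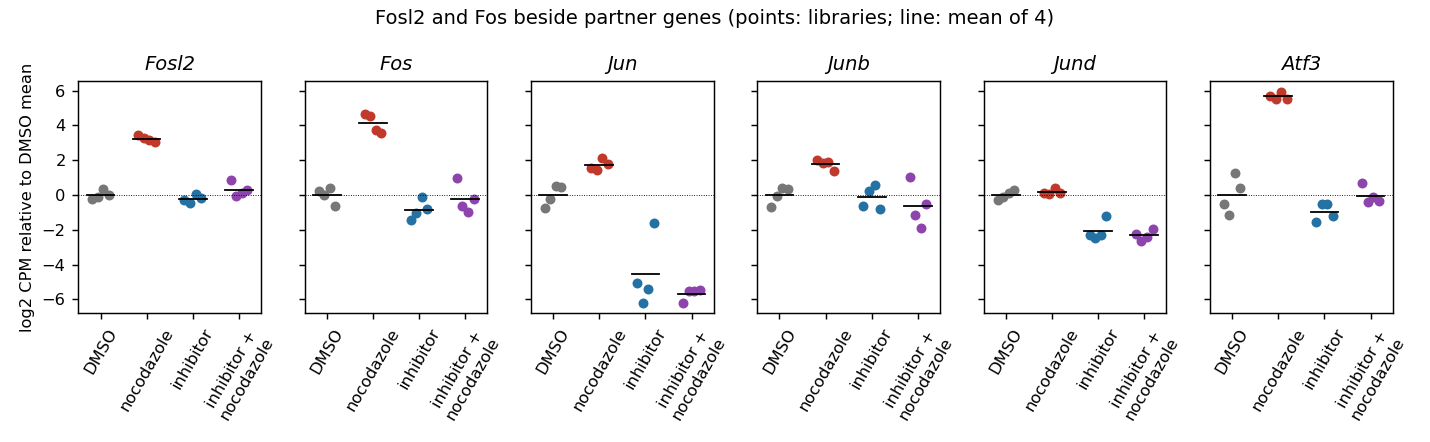
Log2 CPM relative to the DMSO mean for Fosl2, Fos and 4 partner genes, with 1 point per library and lines for the mean of 4. Fosl2 is near 0 in the inhibitor group while Jun and Jund are below 0 in all 4 inhibitor libraries, and Jund differs little between DMSO and nocodazole (log2 change 0.16, edgeR adjusted p = 0.597).

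Among 24 regulators of Fos transcription, 9 rose with nocodazole and 5 fell (18.6% and 19% of all genes), with a median of 0.05 against 0.01 over all genes. Crem, which encodes activators and the inducible repressor ICER of cyclic AMP response elements, was higher by 1.27 ± 0.147 on a log2 scale (edgeR adjusted p = 6.01e-06). Elk3, a serum response factor partner, rose by 0.86 and Stat3 by 0.72. Mef2c, an activity-regulated factor, was lower, at -2.00 ± 0.369 (edgeR adjusted p = 0.000461). With the inhibitor 2 rose and 3 fell (5.78% and 7.24% of all genes), Stat3 (-0.36) and Mrtfa, a coactivator of serum response factor (-0.30), among the latter. In the interaction 4 were higher and 4 lower (9.52% and 9.2% of all genes), with Mef2c at 1.79, Crem at -1.36 and Elk3 at -1.18.

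Kinases and phosphatases that act on Fos proteins or on their kinases split in nocodazole into 8 that rose and 7 that fell of 27 tested (18.6% and 19% of all genes; median -0.04 against 0.01). Those that rose were led by phosphatases of MAP kinases, Dusp4 at 4.04, Dusp1 at 3.03, Dusp6 at 1.48 and Dusp16 at 1.47. With the inhibitor alone 8 fell and 0 rose (7.24% and 5.78% of all genes), among them Dusp1 (-2.81), Dusp16 (-1.98) and Dusp6 (-1.73). In the interaction 5 were higher, including the histone kinase gene Rps6ka5 at 0.75, and 4 lower, including Dusp1 at -3.17 and Dusp16 at -1.92. Decay factors of AU-rich messenger RNA, the class to which Fos belongs, changed little in size. Of 20 tested, 2 rose and 6 fell with nocodazole (18.6% and 19% of all genes; median 0.04 against 0.01). Celf1 was at -0.63 ± 0.0631, Cnot6l at 0.30, Hnrnpdl at -0.28 and Cnot8 at -0.23. With the inhibitor Tia1 (0.58) and Tial1 (0.24) rose and Hnrnpd, which encodes the decay factor AUF1, fell by 0.60. Celf1 (0.58) was the 1 gene of this list called in the interaction.

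Other immediate early genes split too: of 24 tested of 30 listed, 16 rose with nocodazole and 5 fell (18.6% and 19% of all genes; median 0.72 against 0.01). Egr1 rose by 5.56 ± 0.305 (edgeR adjusted p = 4.77e-09), Ier5 by 3.15, Arc by 2.47 and Btg2 by 2.35, and Nr4a2, Klf6, Myc, Amigo3 and Rgs2 fell. With the inhibitor alone 5 fell and 0 rose. Egr1 (-1.88 ± 0.429, edgeR adjusted p = 0.00972) and Btg2 (-1.50) were among these, as was Klf4 (-1.01). In the interaction 11 were lower and 5 higher, led by Egr1 at -6.13, Ier5 at -3.16 and Btg2 at -2.26. With both agents Egr1 was at 0.235 ± 0.106 CPM, below its 1.30 ± 0.743 CPM in DMSO (SD, n = 4).

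Of 36 genes reported elsewhere as AP-1 targets only 19 were tested, since many, such as Mmp3, Mmp9 and Il6, were too low in these cultures. With nocodazole 8 rose and 2 fell (18.6% and 19% of all genes; median 0.57 against 0.01). Tnfrsf12a, a receptor of the TNF family, rose by 3.56, Nts, the neurotensin gene, by 3.25, Areg, an epidermal growth factor receptor ligand, by 2.92 and Hmox1, which degrades haem, by 2.72. Nts rested on few counts, 1 to 6 per DMSO library and 20 to 38 per nocodazole library. In the interaction 6 were lower and 0 higher, with Areg at -3.93, Tnfrsf12a at -3.45 and Hmox1 at -2.01. With the inhibitor alone Hmox1 (0.70) and Vegfa rose, and Tnfrsf12a (-1.18) and Cd44 (-0.69) fell.

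The genes most like each member were those with the smallest root-mean-square difference in log2 CPM over the 16 libraries, each gene centred on its mean, among tested genes with a mean of at least 1 CPM. The libraries share 4 treatments, so likeness can reflect the group pattern as well as differences among libraries of a group, and no p is given. For Fosl2 the nearest were Cnksr3, a scaffold protein gene (0.28), Elmsan1 (0.307), the Polycomb gene Pcgf5 (0.418), Samd4, which encodes an RNA-binding repressor of translation (0.418), and Prr32 (0.435). The median distance of all genes from Fosl2 was 1.43. Elmsan1 went from 26.5 ± 5.82 CPM in DMSO to 166 ± 20.3 in nocodazole and 28.1 ± 9.10 with both agents (SD, n = 4). For Fos they were Itga5, an integrin subunit gene (0.541), Tgif1, a homeobox repressor gene (0.615), Prr32 (0.636), Dusp4 (0.639) and Tnfrsf12a (0.641), against a median of 2.05. For Fosl1 they were Phldb2 (0.709), Cnksr3 (0.736), Adgre5 (0.771), Elmsan1 (0.771) and the long noncoding RNA Dleu2 (0.788), against 1.47. For Fosb they were the calcium channel gene Orai3, Sspo, Cd82, Khnyn and Ager, at 0.602 to 0.625, against a median of 1.01. Orai3 differed widely within groups, at 10.2, 12.4, 7.19 and 4.36 CPM in the nocodazole libraries. In the inhibitor libraries Orai3 had 3.66, 7.9, 7.08 and 3.62 CPM, and with both agents 10.8, 4.35, 3.07 and 5.28 CPM. Within each of these groups, Orai3, Sspo, Cd82 and Ager were highest in the libraries with mitochondrial shares of 1.36% to 1.78%. These are the libraries described above for Fosb. Khnyn was highest there too, except in the nocodazole group. The part of RNA or cell quality, or of sample order, in this likeness was not tested. Cd82 was not called with nocodazole (edgeR adjusted p = 0.106). A gene with no change at all would be at 0.98 from Fosb, 1.41 from Fosl2, 1.45 from Fosl1 and 2.03 from Fos. Within the family Fos and Fosl2 were nearest to each other (0.716), followed by Fosl1 and Fosl2 (0.832), and Fos and Fosb were the farthest apart (1.70).

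Markers of other cells were set beside these results, as Fos family genes are also induced in glia and fibroblasts, and in bulk samples more cells of a type and more RNA per cell cannot be told apart. The 14 glial markers summed to 1620 to 2060 CPM in DMSO, 1100 to 1740 in nocodazole, 1110 to 1740 with the inhibitor and 959 to 1680 with both agents, nearly all of it from Ngfr, S100b and Mbp, which these neurons can express. Of 7 glial markers tested, Erbb3 rose and Mbp fell with nocodazole, and Erbb3 and Pmp22 were lower with both agents than with nocodazole alone, so Erbb3 moved in the direction of the family. The 12 fibroblast markers summed to 49 to 74.1 CPM in DMSO, 47.2 to 78.4 in nocodazole, 32.4 to 68.9 with the inhibitor and 35.5 to 55.6 with both agents, most of it from Thy1 (mean 47.8 CPM), which neurons also express. The 8 fibroblast markers tested had a median log2 change of 0.43 with nocodazole, -0.98 for both agents against nocodazole and -1.02 in the interaction, in the direction of the family. Of these, Dcn rose with nocodazole and none fell, Dcn and Col1a2 were lower with both agents than with nocodazole, and 0 were called in the interaction. The 10 macrophage markers summed to 2.52 to 2.95 CPM in DMSO, 4.34 to 5.89 in nocodazole, 1.9 to 3.04 with the inhibitor and 2.06 to 3.22 with both agents. This list too moved in the direction of the family. Its 3 tested genes had a median log2 change of 0.61 with nocodazole, -0.68 for both agents against nocodazole and -0.62 in the interaction. Of these, Cd68 rose with nocodazole. Aif1 and Cd68 were lower with both agents than with nocodazole alone, and Cd68 was called lower in the interaction. Counts per library were 10 to 45 for Csf1r, 21 to 53 for Aif1, 9 to 98 for Cd68, 0 to 3 for Cx3cr1 and 0 to 2 for Tyrobp. The part of glial, fibroblast and macrophage RNA in the family's levels was not tested. The 10 endothelial markers (20.7 to 28.6 CPM, Egfl7 the most of it) and the 10 pericyte and smooth muscle markers (2.9 to 4.45 CPM) had no gene called with nocodazole.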

How the data were processed

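The counts deposited by the authors are whole numbers per gene in 16 libraries, not normalized. The submitters' processing notes name STAR, Salmon and GRCm39; versions, strand setting and the counting of shared reads are not given in the sources used here. Columns were matched to samples by the sample descriptions in the labels. Symbols (94.1% of identifiers matched) and exon lengths came from GENCODE M21 on GRCm38, used for no coordinates. Counts were fitted with edgeR 4.0.16 in R 4.3.3: TMM scaling (factors 0.9595 to 1.064), the default filterByExpr rule, a quasi-likelihood model with 1 mean per group over all 16 libraries, and Benjamini-Hochberg adjustment over all 19156 genes of a contrast, called below 0.05. SE derive from the test statistic, and 95% intervals from the SE and the fit's degrees of freedom. Genes other than members were named by size of change among called list genes (4 per list for nocodazole, 3 for the inhibitor and the interaction). Alternatives were DESeq2 1.42.0, RLE scaling, no filter, only the compared groups, a replicate block and leaving out each library. In simulated counts for nocodazole without inhibitor (18810 genes in the fit), 100 genes were changed at each of 2 sizes and no others. The test found 68 of 100 genes with a log2 change of 1 and 41 of 100 with 0.5, and made 6 false calls. In the data 37.5% of genes were called in this comparison, so these figures need not hold there. The members and gene lists were chosen with earlier results of these data known.

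Replicates of a group were all distinct, with a chi-square of 8.28 to 51.3 per degree of freedom in 24 pairs. The differences of Fosl2 to Jun genes were chosen after seeing the data, as was the naming, without values, of list genes that fill small counts. The table held 0 columns that were not used.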

Additional observations from a re-analysis of the deposited data

Results flagged for a closer look

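Fosb in DMSO replicate 3 stood apart from the other 3 DMSO libraries, at 0.415 CPM (18 counts) against 0.0879 to 0.124 CPM (3 or 4 counts). The gap was 0.889 of the group's range, above Dixon's 95% limit for 4 samples. For normally distributed values, chance alone sets off this rule in about 1 of 20 groups, and 16 groups were tried. Its rate for counts as low as these was not tested. In the same library Fosl2 (8.11 CPM) and Fos (0.253 CPM) were the highest of the DMSO group too.

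The nocodazole change differed between cultures with and without the inhibitor for Fos (-3.24 on the log2 scale, edgeR adjusted p = 0.0189), Fosl1 (-3.80, adjusted p = 0.0346) and Fosl2 (-2.67, adjusted p = 7.64e-06). Those tests of the difference itself are described above, with the libraries on which Fos and Fosl1 depend.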

How the results depend on the processing

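Calls of Fos, Fosl1 and Fosl2 with nocodazole, and of the inhibitor on them with nocodazole, held with each of the 8 libraries left out in turn and under RLE scaling, no filter, DESeq2, the compared groups only and the replicate block. The interaction call of Fosl2 held under RLE scaling, no filter, DESeq2 and the block, and with each of 16 libraries left out (-2.89 to -2.55). With the replicate block Fosl1's interaction was -3.78 (edgeR adjusted p = 0.0607), and the block changed no other call of a member. Pairing by replicate number was not detected. Correlations of same-numbered deviations were -0.399 to 0.232 over 24 pairs (median 0.0261). Those of different numbers were -0.333 to 0.452 over 72 pairs (median -0.0143), and 3 of 16 samples correlated best with their own number. With 4 samples per group this check cannot exclude pairing. All genes called for nocodazole with inhibitor numbered 16, against 28 with no filter, 5 with the replicate block, 6 with the compared groups only and 127 with DESeq2. The nocodazole share of Fosl2 was 78.3% with longest-transcript lengths.

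Leaving out 1 library at a time, log2 changes of Fosb were 1.14 to 2.25 for nocodazole without inhibitor (called only without DMSO replicate 3), -0.14 to 1.24 for the inhibitor alone, -0.88 to 0.35 for nocodazole with inhibitor and -0.53 to 1.09 for both agents against DMSO. Those of Fosl1 were -0.63 to 0.64 for the inhibitor alone, -1.21 to 0.10 for nocodazole with inhibitor and -4.35 to -3.04 for the interaction. Fos ranged from -4.11 to -2.75 in the interaction and from -0.89 to 0.23 for both agents against DMSO. Between 1 and 3 members were called in the interaction. All genes called were 1242 to 3087 for the inhibitor alone, 2096 to 2938 for both agents against DMSO and 3 to 88 for nocodazole with inhibitor (88 without inhibitor plus nocodazole replicate 1). The cause of these shifts was not tested. Fos, Fosb and Fosl1 had at most 19 counts in every library outside the nocodazole group.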
